A study of Mus musculus with 3 samples.

Results

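The cytotoxic genes described here were Gzma, Gzmb, Gzmc, Gzmk, Gzmm, Prf1, Nkg7, Ctsw and Fasl, 9 of the 31053 genes in the deposited matrices. They were taken as a named set, whatever their values, and were followed across natural killer (NK) cells, T cells and the other leukocytes of the mouse pancreas. Live CD45+ cells had been sorted from the pancreas of C57BL/6 mice given PBS, or given whole glucan particles (WGP) 3 days or 7 days before euthanization, and each of these 3 groups was 1 droplet library. WGP is a particulate beta-glucan from yeast that phagocytes must engulf, and it was injected into the peritoneal cavity. The labels give neither the number nor the sex of the mice behind a library, so a difference between libraries had no replicate check and no test was run. The 95% intervals given below cover counting error only.

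Cytotoxic lymphocytes kill by 2 routes. In the granule route, perforin (Prf1) opens the membrane of the target cell and lets in granzymes, serine proteases that cut proteins inside it, among them the substrates that start apoptosis. In the other route, Fas ligand (Fasl) on the killer binds the death receptor Fas on the target. Gzma cleaves after basic residues and Gzmb after aspartate, which lets Gzmb activate caspases. Gzmk is a tryptase-like granzyme of memory T cells, and Gzmc and Gzmm are further granzymes. Nkg7 is a membrane protein of cytotoxic granules needed for their release, and Ctsw is a cysteine protease of the cathepsin family that is made by NK cells and CD8 T cells. NK cells hold ready-made granules, whereas naive CD8 T cells make granzymes only after activation.

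The granzymes of the set lie in 3 places of the genome (mm10). Gzmb at chr14:56258838-56262260 and Gzmc at chr14:56231441-56234656 belong to a run of 7 granzyme genes within 145 kb on the minus strand. Gzma at chr13:113093825-113100981 and Gzmk at chr13:113171608-113225908 lie within 132 kb of each other, and Gzmm at chr10:79689020-79695261 stands alone. Prf1 lies at chr10:61297833-61304680. The promoters of Gzma, Gzmb and Prf1 are printed because the results turn on these genes. Each is 300 bases from RefSeq (GRCm38.p6), from 250 bases before the RefSeq start to 50 after it, 5' to 3' on the strand of the gene. They are chr13:113100932-113101231 on the minus strand, chr14:56262285-56262584 on the minus strand and chr10:61297586-61297885 on the plus strand. Capitals mark matches, on either strand, to TGTGGT (RUNX factors), TGANTCA (AP-1), AGGTGT (T-box factors such as T-bet and Eomes) and TTCNNNGAA (STAT factors).
Gzma: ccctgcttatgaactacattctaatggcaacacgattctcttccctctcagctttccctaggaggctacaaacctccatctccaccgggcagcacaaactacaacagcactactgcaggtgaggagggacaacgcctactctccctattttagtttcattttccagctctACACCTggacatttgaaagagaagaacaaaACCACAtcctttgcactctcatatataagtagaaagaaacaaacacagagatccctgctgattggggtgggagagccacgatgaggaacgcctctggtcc
Gzmb: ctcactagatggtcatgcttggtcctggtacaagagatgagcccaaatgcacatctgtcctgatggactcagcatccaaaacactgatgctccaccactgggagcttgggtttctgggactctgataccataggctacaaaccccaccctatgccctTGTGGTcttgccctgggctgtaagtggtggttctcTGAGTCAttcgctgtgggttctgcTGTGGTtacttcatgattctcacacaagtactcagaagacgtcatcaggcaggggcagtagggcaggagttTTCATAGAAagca
Prf1: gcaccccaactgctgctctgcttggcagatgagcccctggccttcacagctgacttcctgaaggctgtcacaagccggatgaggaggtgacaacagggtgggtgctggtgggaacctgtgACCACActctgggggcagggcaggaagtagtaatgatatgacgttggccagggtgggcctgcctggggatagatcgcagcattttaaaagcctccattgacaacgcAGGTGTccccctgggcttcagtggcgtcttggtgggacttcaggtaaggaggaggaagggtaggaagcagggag
The Gzma promoter held 1 RUNX and 1 T-box match, as did the Prf1 promoter. The Gzmb promoter held 2 RUNX matches, 1 AP-1 match (TGAGTCA, 58 bases before the RefSeq start) and 1 STAT match, and no T-box match. The RefSeq start of Gzmb was 74 bases from the GENCODE start, whereas the starts of Gzma were the same. Among the 8 members with an entry, 6 held a RUNX match, 5 a T-box match, 3 a STAT match and 1, Gzmb, an AP-1 match. Of all 32851 promoters of that length, 16.8% held the RUNX letters, 13.7% the T-box letters, 8.3% the STAT letters and 7.81% the AP-1 letters. A match is a run of letters and not a measured site.

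The libraries held 52464690 (PBS), 56849043 (3-day WGP) and 48219246 (7-day WGP) unique molecular identifiers (UMIs), each the count of 1 captured RNA molecule. Barcodes with at least 1000 UMIs and at most 30% mitochondrial UMIs numbered 5249, 4879 and 4174, and 5029, 4689 and 4035 cells were left after doublets were removed. Across the libraries, 15 barcode sequences were kept in 2 or more of them and 0 in all. Cells were classed by clustering without the 9 genes. NK-like cells, with Ncr1 at 686 to 835 CPM (UMIs of a gene per 1000000 UMIs of the class) and Cd3e at 0 to 11.04 CPM, numbered 118, 388 and 355. CD8 T-like cells numbered 174, 291 and 151, innate-like T cells 108, 100 and 194, and gamma-delta T-like cells 115, 343 and 60. Innate-like T cells had Cd3e at 366 to 397 CPM with the NK receptor genes Cd160 and Klra7. Zbtb16, the defining factor of NKT cells, was low at 1.83 to 5.66 CPM, so the name rests on the receptors. A further NK receptor gene, Klrb1c, was at 187, 222 and 93.8 CPM in this class. The class also had Cd8a, a gene of CD8 T cells, at 32.1, 78.8 and 130 CPM. Trdc, a gene of gamma-delta T cells, was at 164 to 233 CPM in it. Gamma-delta T-like cells had Trdc at 1486 to 1841 CPM. The median depth of NK-like cells was 3594.5, 3634.5 and 5678 UMIs, and that of B-like cells 3559.5, 3940 and 4872.5.

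NK-like cells had the highest level of 6 of the 9 genes in all 3 libraries, namely Gzma, Gzmb, Prf1, Nkg7, Ctsw and Fasl. Levels are CPM of the UMIs of a gene summed over a class of cells. Only named classes with at least 20 cells in a library were ranked. Unnamed cells were not, and a few of them held much Gzmb in 3-day WGP, as given below. In 16 of these 18 pairs of gene and library the intervals of NK-like cells and the next class did not overlap. Both exceptions were Gzmb, where NK-like cells (369 CPM) and cycling lymphoid cells (269 CPM) overlapped in PBS, and NK-like cells (573 CPM) and gamma-delta T-like cells (522 CPM) overlapped in 7-day WGP. Cycling lymphoid cells, a mixed cluster with Mki67, were second for Gzma and Prf1 in all 3 libraries. Innate-like T cells were second for Ctsw and Fasl in all 3 libraries and for Nkg7 in PBS and 3-day WGP. Gzmk and Gzmm followed another order, with CD8 T-like or cycling lymphoid cells first in every library. The intervals of the first and second class overlapped for both genes in all libraries, except for Gzmk in PBS.

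**Figure D1:**
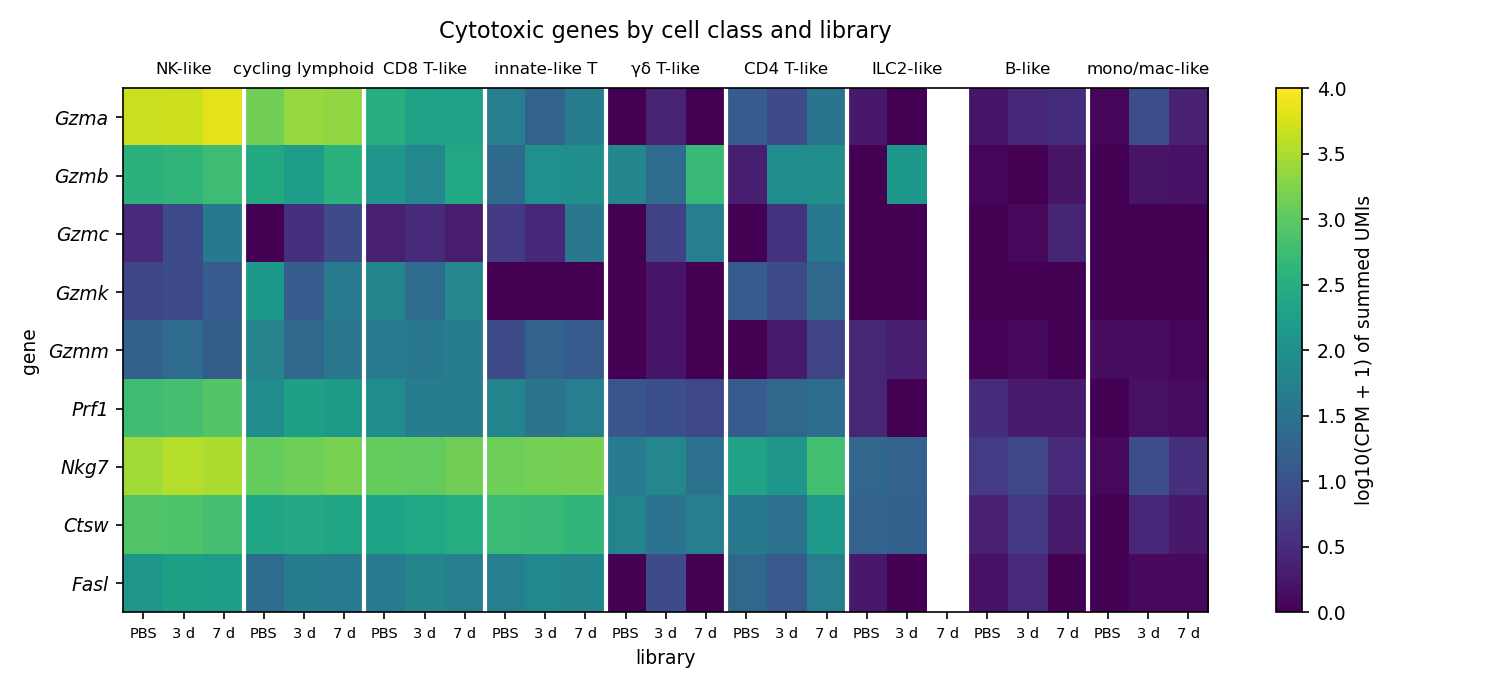
Level of each of the 9 genes (rows) as log10(CPM + 1) of UMIs summed over a class of cells, for 9 classes and the 3 libraries (columns); the blank column is ILC2-like cells in 7-day WGP, which had 12 cells. NK-like cells are brightest for Gzma, Prf1, Nkg7, Ctsw and Fasl, whereas Gzmk is brightest in CD8 T-like and cycling lymphoid cells.

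Gzma separated NK-like cells from T cells most sharply. In NK-like cells it was at 4826 CPM (4638 to 5020) in PBS, 4934 CPM in 3-day WGP and 6824 CPM (6715 to 6936) in 7-day WGP. In CD8 T-like cells it was at 326, 198 and 190 CPM. In gamma-delta T-like cells the Gzma count was 0 of 485424, 2 of 1416616 and 0 of 320012 UMIs, and a count of 0 allows up to 6.18 CPM in PBS and 9.37 CPM in 7-day WGP. B-like cells, a class that should lack granzymes, were at 0.673 to 2.29 CPM. Prf1 had the same order, at 588, 668 and 846 CPM in NK-like cells, 84.6, 48.7 and 49.2 CPM in CD8 T-like cells and 6.25 to 10.3 CPM in gamma-delta T-like cells.

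Nkg7 and Ctsw were spread more widely over the lymphocytes. Nkg7 was at 2776, 3601 and 3247 CPM in NK-like cells, 1327, 1460 and 1520 CPM in innate-like T cells and 1145, 1103 and 1359 CPM in CD8 T-like cells. Ctsw was at 822, 788 and 656 CPM in NK-like cells and 523, 518 and 430 CPM in innate-like T cells. Gamma-delta T-like cells stood apart from the other T cells, with Nkg7 at 41.2, 70.6 and 31.2 CPM and Fasl counts of 0, 10 and 0 UMIs. Fasl was at 129, 188 and 175 CPM in NK-like cells and 50.9, 71.8 and 66.4 CPM in innate-like T cells.

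Gzmk and Gzmm were higher in CD8 T-like than in NK-like cells in every library. Gzmk was at 66.9, 24.4 and 70.1 CPM in CD8 T-like cells and at 5.86, 6.98 and 12.98 CPM in NK-like cells, and innate-like T cells held 0 Gzmk UMIs in each library. Gzmm was at 44.2, 39.2 and 48.1 CPM in CD8 T-like cells and 15.6, 24.4 and 14.4 CPM in NK-like cells. Gzmc was rare, with 7, 58 and 246 UMIs in the whole libraries. The other granzymes of the chromosome 14 run, Gzmd, Gzme, Gzmf, Gzmg and Gzmn, had 0 UMIs in NK-like cells of any library. The Gzmc transcript matched those of its chromosome 14 neighbours at 72.7% to 76.9% of aligned bases. How reads shared between these copies were counted was not tested.

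To compare cells of unequal depth, every cell was thinned to 1000 UMIs and the share of cells that still held a UMI of a gene was counted. In NK-like cells the thinned share with Gzma was 64.4% (55.1% to 73.0%) in PBS, 76.5% (72.0% to 80.7%) in 3-day WGP and 87.3% (83.4% to 90.6%) in 7-day WGP. The intervals of PBS and 7-day WGP did not overlap. For Prf1 the share was 37.3%, 44.1% and 53.0%, and again PBS (28.6% to 46.7%) and 7-day WGP (47.6% to 58.2%) did not overlap. For Gzmb it was 23.7%, 23.7% and 35.8%, with overlapping intervals for PBS (16.4% to 32.4%) and 7-day WGP (30.8% to 41.0%). Nkg7 remained in 87.3%, 95.9% and 92.7% of NK-like cells, and Ctsw in 52.5%, 53.1% and 48.7%. Without thinning, Gzma was in 73.7%, 85.6% and 93.5% of NK-like cells and Gzmb in 43.2%, 44.1% and 64.5%. In B-like cells the thinned share was at most 0.76% for any of the 9 genes.

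**Figure D2:**
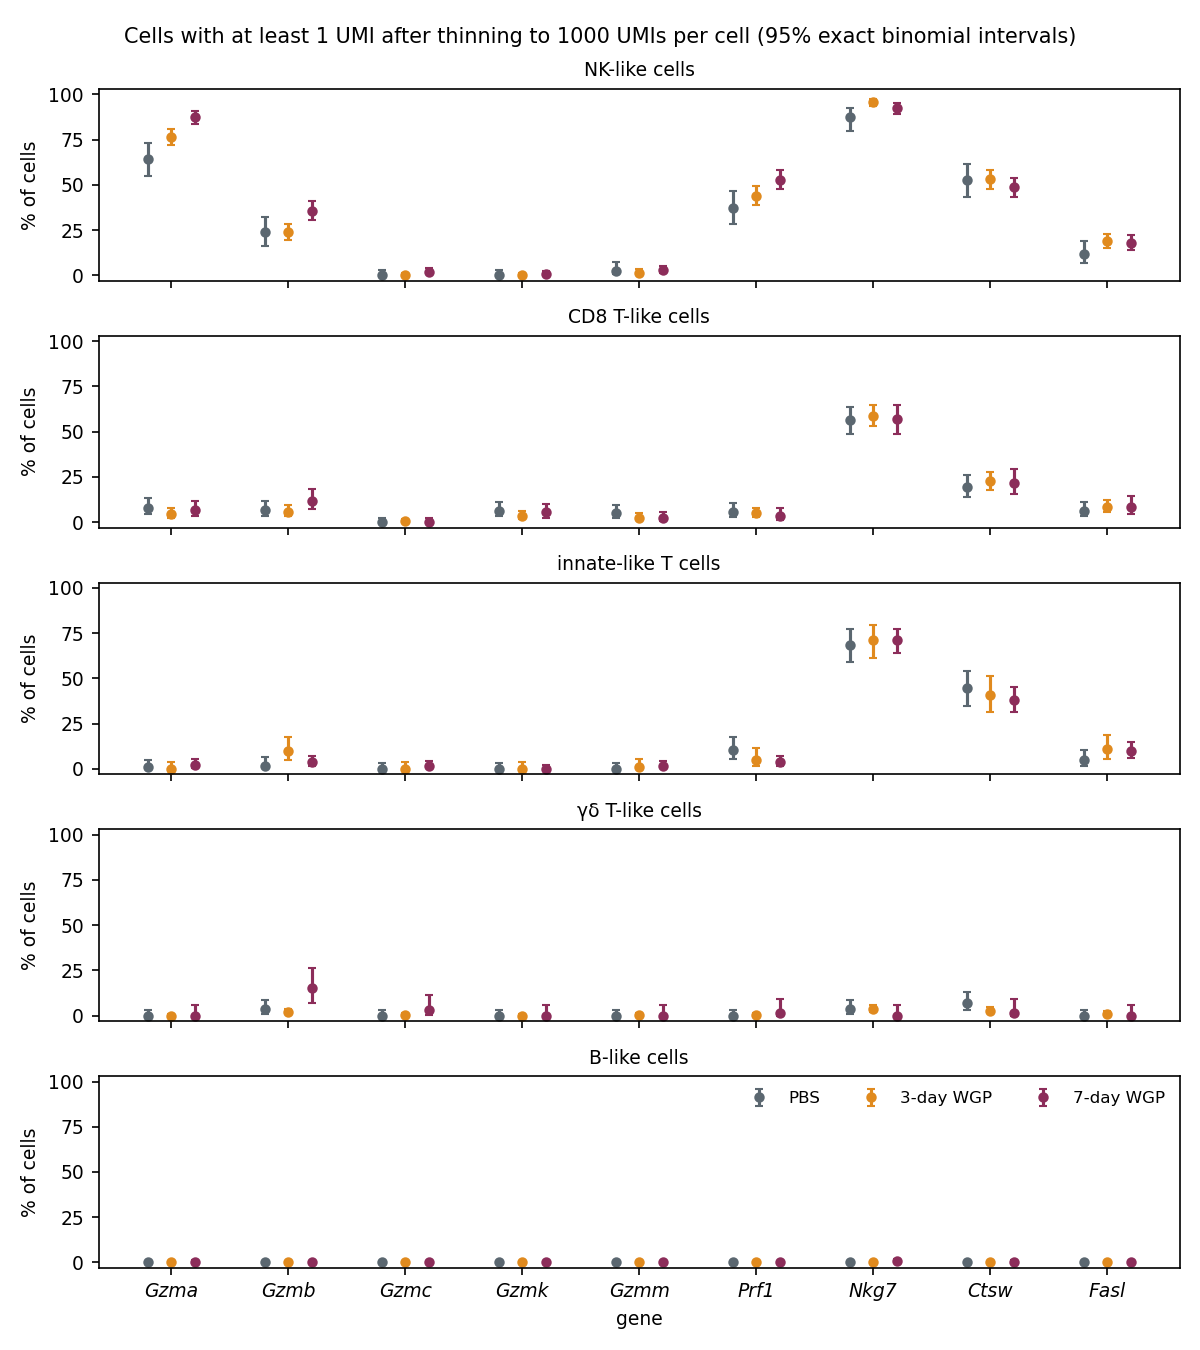
Share of cells (%) with at least 1 UMI of each gene after thinning to 1000 UMIs per cell, in NK-like, CD8 T-like, innate-like T, gamma-delta T-like and B-like cells; points are libraries and bars are 95% exact binomial intervals. Gzma in NK-like cells goes from 64.4% in PBS to 87.3% in 7-day WGP, and B-like cells lie at or below 0.76% throughout.

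The next comparison asked whether NK-like cells differed in these genes after WGP. At 7 days, Gzma was 1.41-fold, Gzmb 1.55-fold and Prf1 1.44-fold the PBS level, Gzmc rose from 1 UMI to 88 UMIs, and Ctsw was 0.798-fold. Gzma, Gzmb, Gzmc, Gzmk, Prf1 and Ctsw were closer to PBS at 3 days than at 7 days, whereas Nkg7, Fasl and Gzmm were farther from it. Among the members with 50 or more UMIs in PBS, Nkg7 (1.30-fold) and Fasl (1.46-fold) had the largest ratios at 3 days. At 7 days these 2 were at 1.17-fold and 1.36-fold. Ratios are given as log2((CPM + 10)/(PBS CPM + 10)), which draws low genes toward 0. None of the 9 genes was 2-fold or more from PBS at 3 days, against 0.635% of 5516 genes tested in this class. At 7 days 1 was, Gzmc, against 1.36%. Genes tested had a mean of at least 20 CPM over the libraries. Gzmc, Gzmk and Gzmm fell below it and so are not among the 5516. None of the members that reached it was past 2-fold at 7 days. The median of the 9 genes was 0.18 at 3 days and 0.50 at 7 days, beside -0.03 and 0.00292 for all genes tested.

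The granule proteases and perforin had these values. Gzmb was at 369 CPM (318 to 425) in PBS, 416 CPM (386 to 447) in 3-day WGP and 573 CPM (541 to 606) in 7-day WGP. The interval of 7-day WGP lay above both others, and the log2 ratio was 0.17 at 3 days and 0.62 at 7 days. Prf1 was at 588 CPM (523 to 658), 668 CPM (630 to 708) and 846 CPM (807 to 886), with log2 ratios of 0.18 and 0.52. Gzma had log2 ratios of 0.03 and 0.50. Gzmc was at 1.95, 6.98 and 40.8 CPM, from 1, 12 and 88 UMIs in 1, 8 and 25 cells, and its unadjusted log2 ratio at 7 days was 4.39 with a counting interval of 1.87 to 9.71. The 5 cells with most Gzmc UMIs held 64.8% of them in 7-day WGP. Ctsw was lower at 7 days, with a log2 ratio of -0.32. Fasl had log2 ratios of 0.51 and 0.42 and Nkg7 of 0.37 and 0.23, while Gzmk (3, 12 and 28 UMIs) and Gzmm (8, 42 and 31 UMIs) were counted in few UMIs. In PBS, 5 cells held 48.7% of the Gzmb UMIs, and the 7-day log2 ratio of Gzmb was 1.26 when the 5 cells with most of its UMIs were left out of each library. That took 5 of 118 cells in PBS and 5 of 355 in 7-day WGP. The removal was thus unequal, and 1.26 cannot be read as a ratio freed of outlying cells.

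Markers of other cells also moved with the library in NK-like cells. The summed level of 8 monocyte and macrophage markers, of which 7 were seen in all libraries, was 103.5, 91.3 and 181 CPM. That of 7 acinar cell markers, the digestive enzyme genes of the pancreas, was 60.5, 45.3 and 96.5 CPM, and that of 7 T cell markers, of which 6 were seen in all libraries, was 650, 606 and 530 CPM. The 5 markers of type 1 innate lymphoid cells, a related lineage that clusters near NK cells, summed to 406, 158 and 173 CPM. The median mitochondrial share was 3.93%, 3.48% and 3.35%. The part of these in the ratios was not tested.

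**Figure D3:**
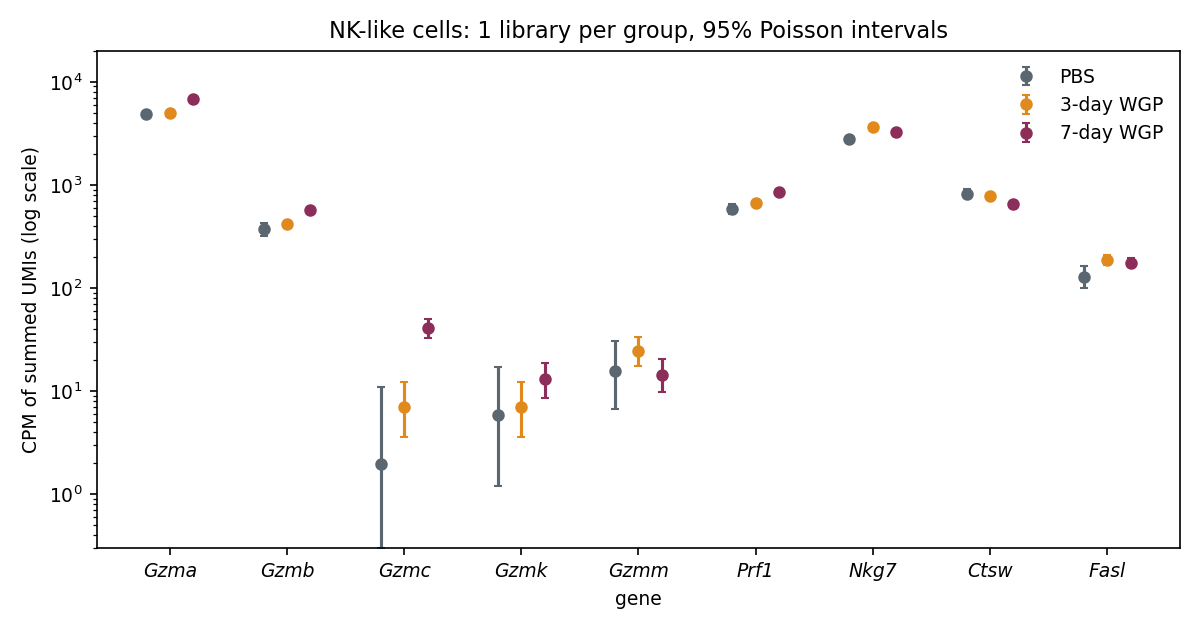
Level of each gene in NK-like cells in CPM on a log axis, with 1 point per library and exact Poisson 95% intervals. Gzma, Gzmb, Prf1 and Gzmc are highest in 7-day WGP (6824, 573, 846 and 40.8 CPM) and Ctsw is lowest there (656 CPM).

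The NK-like class was made of 2 clusters whose shares differed between libraries. Cluster 1 held 39.8%, 21.4% and 89.0% of the class and cluster 2 the rest. The median depth was 5926, 6845 and 5754.5 UMIs in cluster 1 and 2962, 3312 and 5292 UMIs in cluster 2. Cluster 2 had 39 cells in 7-day WGP, and the part of depth was not tested. Within cluster 1 the Gzma level was 6012, 5814 and 6890 CPM, and within cluster 2 it was 3701, 4459 and 6224 CPM. The 7-day log2 ratio of Gzma was thus 0.20 in cluster 1 and 0.75 in cluster 2. For Gzmb it was 0.24 in cluster 1 and 0.91 in cluster 2, and for Prf1 0.28 and 0.62. All 6 values were above 0, and within cluster 1 the counting interval of Gzmb, -0.03 to 0.52, included 0. For Ctsw the 7-day ratio was -0.37 in cluster 1 and -0.04 (-0.34 to 0.26) in cluster 2. Its 3-day ratio, -0.06 in the class, was -0.66 (-0.93 to -0.41) in cluster 1 and 0.20 (-0.01 to 0.42) in cluster 2. Of the 88 Gzmc UMIs of 7-day WGP, cluster 1 held 87.

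UMIs of Xist, the RNA that silences an X chromosome in females, and of Y-linked genes were both found in each library. Cells with Xist and no Y-linked UMIs (Xist cells) numbered 49, 13 and 91 among the NK-like cells, those with the reverse (Y cells) 32, 192 and 176, and those with neither or both 37, 183 and 88, so the mix differed between libraries. In Xist cells Gzma was at 3910 CPM in PBS and 8033 CPM in 7-day WGP, a log2 ratio of 1.04. In Y cells it was at 5744 and 5289 CPM, a log2 ratio of -0.12 with a counting interval of -0.25 to 0.02. The direction of the Gzma difference at 7 days therefore differed between Xist and Y cells, though the interval in Y cells included 0. Gzmb had the same direction in both, with log2 ratios of 0.41 in Xist and 1.09 in Y cells, as did Prf1 with 0.48 and 0.24, the latter with an interval of -0.13 to 0.64 that included 0. The 7-day ratio of Ctsw was -0.44 in Xist and -0.08 in Y cells (-0.46 to 0.33). The 32 Y cells of PBS had a median of 2399 UMIs, against 6571 in the 49 Xist cells of PBS. The part of mouse, sex and depth in these values was not tested.

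**Figure D4:**
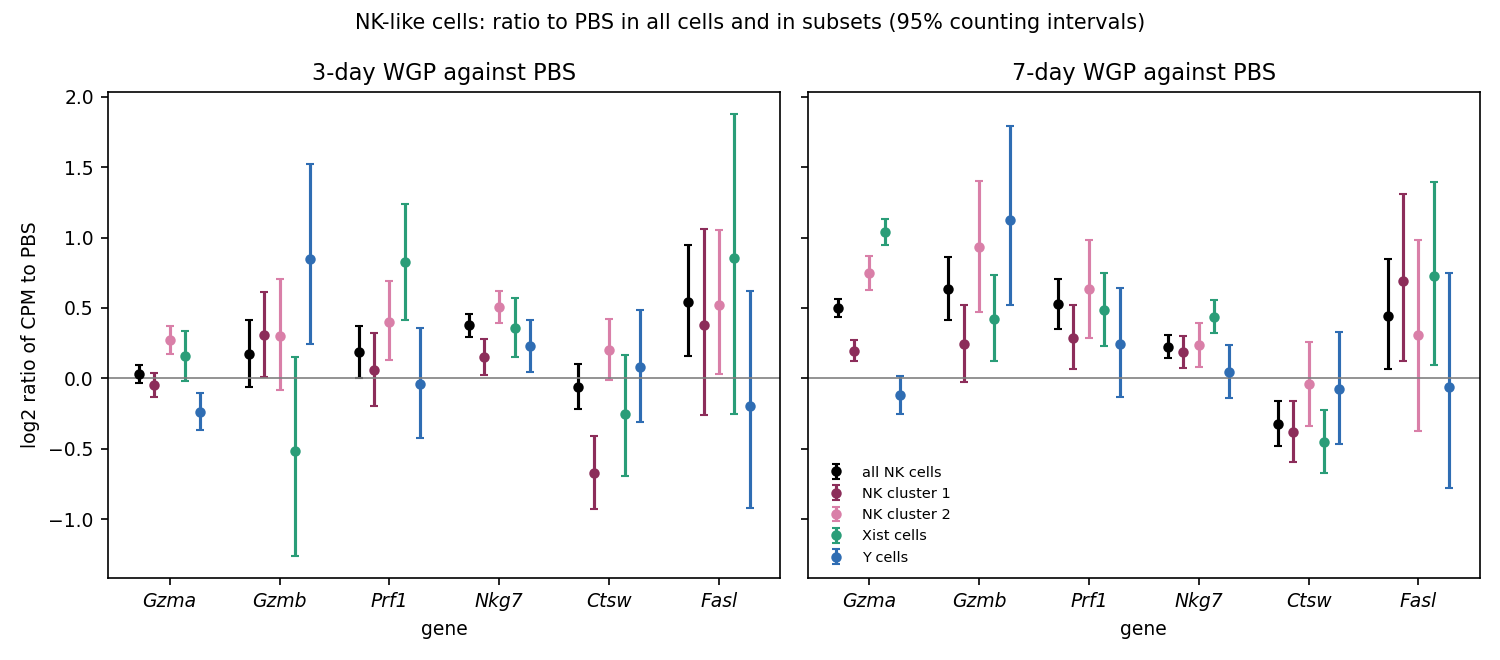
Log2 ratio of CPM to PBS for 6 genes in all NK-like cells, in clusters 1 and 2, and in Xist and Y cells, with 95% counting intervals, at 3 days (left) and 7 days (right). At 7 days Gzmb and Prf1 lie above 0 in every subset, with the Prf1 interval in Y cells and the Gzmb interval in cluster 1 crossing 0, whereas Gzma lies at 1.04 in Xist cells and -0.12 in Y cells.

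Within NK-like cells Prf1 was seen more often in cells with Gzmb, whereas for Fasl the intervals overlapped. After thinning, Prf1 was seen in 64.3%, 68.5% and 64.6% of the cells with Gzmb and in 28.9%, 36.5% and 46.5% of the cells without it. For Fasl the shares with Prf1 were 21.4%, 50.7% and 54.0% of the cells with Fasl and 39.4%, 42.5% and 52.7% of those without it. Gzma and Prf1 were seen in the same cell in 31.4%, 38.9% and 50.4% of NK-like cells. A cell held UMIs of a median of 3 members in each library. Without thinning, 51 of 51, 166 of 171 and 223 of 229 Gzmb cells also held Gzma. These values describe detection in the same cell.

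CD8 T-like cells split into a cluster with Gzmb and one with almost no Gzmb. Cluster 5, led by Ccl5, Cxcr3 and Cd8b1, held 70.7%, 64.6% and 52.3% of the class, and cluster 9, led by the naive T cell genes Lef1, Tcf7 and Dapl1, held the rest. Gzmb was at 187, 148 and 520 CPM in cluster 5 and had 1, 0 and 2 UMIs in cluster 9. Gzmk was at 99.1, 49.3 and 151 CPM in cluster 5, where Fasl was at 66.7, 135 and 113 CPM. Nkg7, Ctsw and Prf1 were in both clusters, with Nkg7 at 1431, 1560 and 2207 CPM in cluster 5 and 584, 681 and 627 CPM in cluster 9. Ctsw was at 139, 195 and 220 CPM in cluster 9. Prf1, the pore-forming protein, was at 100.98, 52.1 and 65.5 CPM in cluster 5 and 52.4, 45.6 and 35.1 CPM in cluster 9. Gzma in the class was carried by few cells, as 5 cells held 77.5%, 75.4% and 81.3% of its UMIs.

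Over the whole CD8 T-like class, 1 member was 2-fold or more from PBS at 3 days, against 0.506% of 5139 genes, and 0 were at 7 days, against 0.895%. The member was Gzmk, with 53 UMIs in 174 cells in PBS and 36 UMIs in 291 cells in 3-day WGP, a log2 ratio of -1.16. It was -2.29 in Xist and 0.19 in Y cells, so the direction turned between them. Prf1 was at 84.6 CPM (65.6 to 107) in PBS, 48.7 CPM (38.1 to 61.3) in 3-day WGP and 49.2 CPM (36.1 to 65.4) in 7-day WGP. Its log2 ratios were -0.69 and -0.68, and they were negative in all 15 alternatives, from -1.06 to -0.45 at 3 days and from -1.11 to -0.44 at 7 days. Other pseudocounts and another background limit, which are among the 15, cannot change the sign. The perforin level at 7 days was thus below PBS in CD8 T-like cells and above PBS in NK-like cells, and the difference between the classes was not tested. Gzmb was at 125, 71.0 and 243 CPM, with a log2 ratio of -0.74 at 3 days and 0.90 at 7 days. In this class the 10 NK markers, of which 5 were seen in all libraries, summed to 307, 398 and 513 CPM and the 8 monocyte and macrophage markers to 69.5, 106.2 and 187 CPM, and their part in the ratios was not tested. The 7-day value was -0.64 in Xist and 2.26 in Y cells, and -0.08 when cells were classed by marker genes in place of clusters.

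Innate-like T cells had the granule membrane gene and the cathepsin in most cells, and Prf1, Gzma and Gzmb in fewer. Nkg7 UMIs were in 97.2%, 100% and 98.5% of them and Ctsw UMIs in 80.6%, 83.0% and 90.2%. Prf1 was in 24, 14 and 50 cells, and Gzma in 1, 7 and 20 of the 108, 100 and 194 cells. Gzmb was at 22.6, 99.8 and 96.8 CPM, from 12, 57 and 159 UMIs in 8, 23 and 28 cells. After thinning, Gzmb was seen in 1.85%, 10 of 100 and 3.61% of the cells, with overlapping intervals. Its log2 ratio was 1.75 at 3 days and 1.71 at 7 days, and over the alternatives it stayed between 0.88 and 2.54 at 3 days and between 1.02 and 2.97 at 7 days. The 8 monocyte and macrophage markers, of which 4 were seen in all libraries, summed to 66.0, 91.1 and 109 CPM in this class. Cd8a was at 32.1, 78.8 and 130 CPM, and the part of these markers was not tested. Counting both directions, 2 members were 2-fold or more from PBS at 3 days, against 1.86% of 5149 genes, and 2 at 7 days, against 1.96%. The others were Gzma at 3 days, lower because 1 PBS cell held all 27 UMIs, and Gzmc at 7 days, where 1 cell held 46 of 63 UMIs. Gzmc had a mean below 20 CPM in this class, so it is not among the 5149 genes.

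Gamma-delta T-like cells had Gzmb largely without Gzma, Prf1 and Nkg7. This class is of the interleukin-17 type, with Il17a at 218, 351 and 1219 CPM and the scavenger receptor gene Cd163l1 at 696 to 906 CPM. Gzmb was at 68.0 CPM (46.8 to 95.5) in PBS, 24.001 CPM (16.6 to 33.5) in 3-day WGP and 522 CPM (446 to 607) in 7-day WGP. It was seen in 7 of 115, 21 of 343 and 25 of 60 cells, and after thinning in 3.48%, 1.75% and 9 of 60. The 7-day log2 ratio was 2.77, with a range over the alternatives of 1.93 to 4.01. The upper end came from leaving out the 5 cells of each library with most Gzmb UMIs. The summed level of the 8 monocyte and macrophage markers, of which 4 were seen in all libraries, was 53.6, 34.6 and 146.9 CPM in this class, and that of the 10 NK markers 41.2, 49.4 and 37.5 CPM, and their part was not tested. Of the 25 Gzmb cells in 7-day WGP, 0 held Gzma, 2 held Prf1, 2 held Nkg7 and 11 held Il17a. In NK-like cells of that library, 218 of 229 Gzmb cells held Prf1 and 223 held Gzma. The 5 cells with most Gzmb UMIs held 61.7% of them. Both gamma-delta clusters had Gzmb in 7-day WGP, at 365 CPM in the 52 cells of cluster 4 and 1588 CPM in the 8 cells of cluster 11. Gzmc, at 0, 7 and 16 UMIs, was the other member 2-fold or more above PBS at 7 days, and 15 of the 16 UMIs were in cluster 11. So 2 members were past 2-fold at 7 days, against 5.23% of 5656 genes, and 1, Gzmb, at 3 days, against 1.41%. Gzmc had a mean below 20 CPM in this class and is not among the 5656 genes, which leaves Gzmb as the only tested member past 2-fold. The 3-day value of Gzmb, -1.20, became 0.59 when the 5 cells with most Gzmb UMIs were left out of each library. That removed 5 of the 7 Gzmb cells of PBS and 5 of the 21 of 3-day WGP. Because the removal was unequal, neither 0.59 nor 4.01 shows how firm the ratios were.

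Several members were higher at 7 days in CD4 T-like cells. Nkg7 was at 203, 131 and 618 CPM, Ctsw at 40.1, 30.8 and 143 CPM and Fasl at 20.6, 12.1 and 50.9 CPM. Gzmb had 1, 95 and 138 UMIs, and 5 cells held 91.6% of them in 3-day WGP and 42.8% in 7-day WGP. Gzmc had 0, 3 and 59 UMIs, of which 34 lay in 1 cell. At 3 days 1 member, Gzmb, was 2-fold or more from PBS, against 0.715% of 5315 genes, and at 7 days 4 members, Gzmb, Gzmc, Nkg7 and Ctsw, were, against 3.12%. Gzmc had a mean below 20 CPM in this class, so it is not among the 5315 genes. In 7-day WGP cluster 7 held 138 of 138 Gzmb, 896 of 898 Nkg7 and 195 of 208 Ctsw UMIs of the class. Cluster 7 is led by Tnfrsf4, Ifng and Ctla4 and made up 34.7%, 27.5% and 77.5% of the class, so its share moved with the result. Foxp3, the defining factor of regulatory T cells, was at 26.3, 46.7 and 73.6 CPM in the class. Within cluster 7, Nkg7 was at 442, 404 and 799 CPM and Gzmb at 0, 95 and 138 UMIs in 74, 52 and 203 cells. The class had Ifng at 43.5, 7.47 and 662 CPM.

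Among cycling lymphoid cells, those with NK genes and no Cd3 UMIs had Gzma near or above the level of the NK-like class and Prf1, Gzmb and Ctsw below it. The Gzma values were 5275, 7659 and 6744 CPM in 8, 18 and 26 cells. Prf1 was at 375, 574 and 396 CPM, Gzmb at 120, 316 and 359 CPM and Ctsw at 428, 477 and 365 CPM in these cells. Cycling cells with Cd3 and no NK genes had Gzma at 0, 127 and 82.7 CPM, while Gzmb was at 5.37, 106 and 513 CPM in 12, 27 and 30 cells. In 7-day WGP, 19 of the 80 cycling cells held 10 or more Gzmb UMIs, of which 14 also held Prf1.

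A few cells outside the lymphocytes held Gzmb without perforin. Cells with Mcpt8, Cpa3 and Ms4a2, genes of basophils and mast cells, were picked out after their Gzmb values were seen, and numbered 1, 5 and 1. In 3-day WGP, 4 of the 5 held 97, 84, 117 and 22 Gzmb UMIs, with 0 Gzma and 0 Prf1 UMIs. These 320 UMIs were 19.6% of the Gzmb UMIs of the library. The Gzmb level of ILC2-like cells in 3-day WGP, 134 CPM, was the 117 UMIs of 1 of these cells. The single PBS cell of this kind held 1 Gzmb UMI and 360 Mcpt8 UMIs.

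Over all kept cells, Gzma was at 88.7 CPM in PBS, 239 CPM in 3-day WGP and 473 CPM in 7-day WGP, and Gzmb at 12.2, 34.2 and 65.3 CPM. NK-like cells were 2.35%, 8.27% and 8.80% of the kept cells and held 65.0%, 74.3% and 79.2% of the Gzma UMIs. They held 51.0%, 72.9% and 80.3% of the Prf1 UMIs and 36.1%, 43.8% and 48.2% of the Gzmb UMIs. The whole-library levels and the share of NK-like cells were both higher in 3-day WGP than in PBS. From 3-day to 7-day WGP the share had overlapping intervals (7.50% to 9.10% and 7.94% to 9.71%) while the Gzma and Gzmb levels of the library were higher again. The part of the sort and of cell recovery in that share was not tested. Cycling lymphoid cells held 16.8%, 17.1% and 17.9% of Gzma. Of the UMIs of all 9 genes, NK-like cells held 42.3%, 60.7% and 62.6% (44.9%, 36.5% and 56.6% among Xist cells), CD8 T-like cells 14.04%, 8.81% and 5.18%, and cells left unnamed 10.6%, 3.61% and 1.24%.

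**Figure D5:**
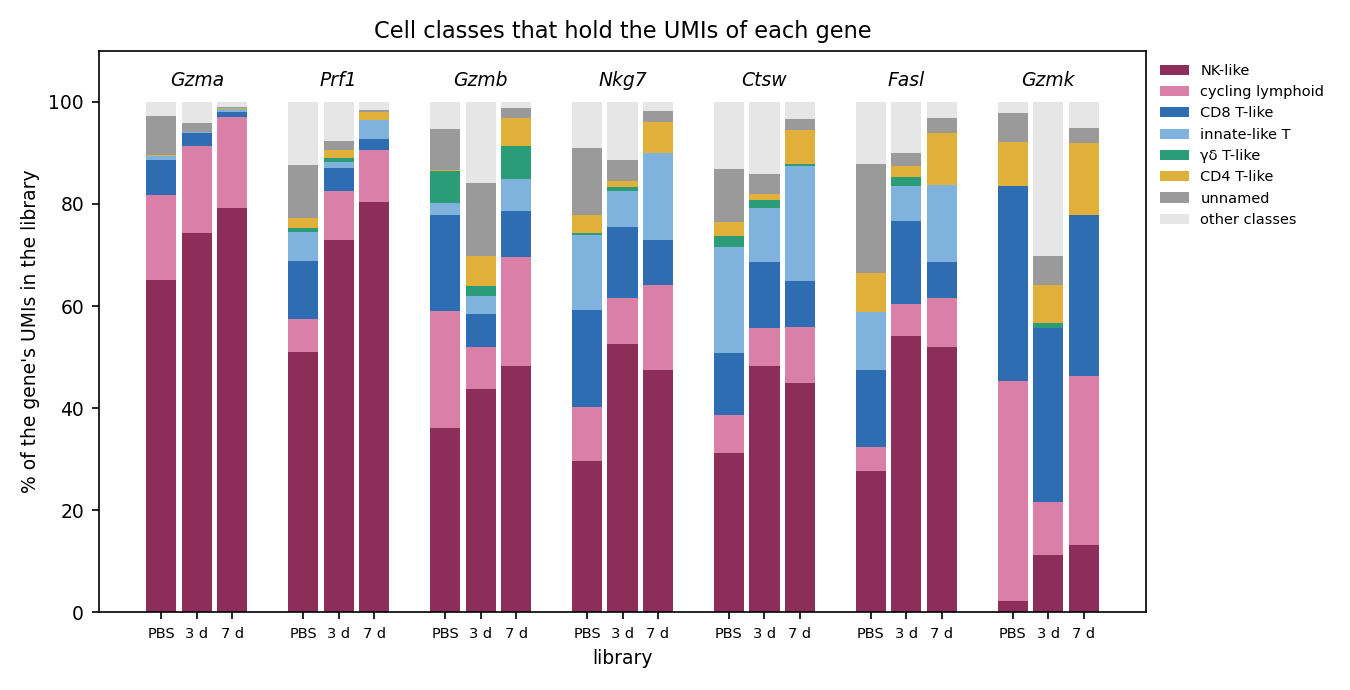
Share (%) of the UMIs of 7 genes in each library that lay in each class of cells, as stacked bars. NK-like cells hold from 65.0% to 79.2% of Gzma, whereas they hold from 2.16% to 13.2% of Gzmk.

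Genes that load, release, block or regulate granules were read in NK-like cells from 6 fixed lists of 48 genes. Over all genes tested in this class, 0.635% at 3 days and 1.36% at 7 days were past 2-fold. Of the granule loading and release genes, 0 of 12 tested were 2-fold or more from PBS at either time, with medians of 0.03 and 0.20 on the log2 scale. The highest were Srgn, the proteoglycan that holds granzymes in the granule, at 775, 988 and 899 CPM, then Vamp8 (176, 145 and 156 CPM), a fusion protein, and Cst7 (144, 153 and 172 CPM), an inhibitor of the proteases that activate granzymes. Among the granzyme inhibitors, 1 of 5 tested was past 2-fold at 7 days. This was Serpinb9, which blocks Gzmb and protects the killer from its own protease, at 254 CPM (212 to 301), 419 CPM and 562 CPM (531 to 595), a log2 ratio of 1.12. Serpinb6b was at 320, 419 and 483 CPM and Serpina3g at 299, 326 and 422 CPM, and the list had medians of 0.38 and 0.49.

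In the remaining lists, each gene tested was within 2-fold of PBS at both times. Of the death ligands and receptors, 4 of 7 were tested, with medians of -0.13 and -0.11. Casp8, the initiator caspase of death receptors, was at 109, 92.4 and 93.2 CPM, and Bid at 42.9, 44.2 and 38.0 CPM. Below the level for testing but past 2-fold in a log2 ratio were Tnf, at 9, 14 and 7 UMIs, with -1.06 at 7 days, and Fas, at 2, 20 and 40 UMIs, with 1.04 at 7 days. The regulators had medians of -0.02 and 0.21. Among them Id2 was at 994, 1003 and 1090 CPM, Eomes at 267, 263 and 311 CPM Zeb2 at 246, 158 and 186 CPM and Runx3 at 205, 216 and 304 CPM, while Tbx21 was at 174, 138 and 119 CPM. The cytokine receptors had medians of 0.01 and 0.41, with Il2rb, the shared chain of the receptors for interleukins 2 and 15, at 859, 874 and 1036 CPM and Ifngr1 at 560, 631 and 1012 CPM. Il2rg was at 273, 297 and 405 CPM.

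The pattern of each member over 39 sums of a class and a library was set beside that of 9483 genes by Pearson's r of log levels. The sums of a library share its depth, so r is a description. Gzma was most like Prf1 (0.95), the T-box gene Eomes (0.93) and Klra4 (0.90). Prf1 was most like Eomes (0.97), Gzma (0.95) and Baiap3 (0.94). Nkg7, Ctsw and Fasl formed another group, with r of 0.96 between Nkg7 and Ctsw, 0.96 between Nkg7 and Fasl, and 0.97 between Ctsw and the T-box gene Tbx21. Gzmb was nearest to Gm33104 (0.90), Il2rb (0.88) and Gm14029 (0.87), and no other member of the set was among its 3 nearest genes. Gzmk was nearest to Gzmm (0.81). Gzmc had the weakest likeness, 0.71 with Gm33104, ahead of Ier5l and Tnfrsf9.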

How the data were processed

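Live CD45+ cells were sorted, and the authors prepared droplet libraries (10x Genomics, 3' v3.1). Per the labels, reads were counted with Cell Ranger 3.1.0 against mm10. The submitters' processing notes also name Seurat. The deposited values are counts of UMIs per gene and barcode, neither normalized nor filtered by cell. There were 3 libraries, 1 per group, and 0 unused value columns.

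Barcodes with at least 1000 UMIs and at most 30% mitochondrial UMIs were kept. Doublets were scored against simulated ones, and the highest scores were removed at 0.8% per 1000 barcodes, or 220, 190 and 139 cells. Cells were clustered with Leiden (leidenalg 0.10.2) on 3000 variable genes and 30 principal components, and T, NK and ILC clusters were clustered again. The 9 genes, the pathway lists, mitochondrial, ribosomal and sex genes were left out. Clusters were named after they were seen, from listed markers, and 450, 284 and 185 cells stayed unnamed. Python 3.11.15, numpy 2.4.6, pandas 2.3.3 and scipy 1.17.1 were used.

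UMIs were summed per class and library and given as CPM with exact Poisson intervals, shares with exact binomial (Clopper-Pearson) intervals, and ratios with conditional binomial intervals. PCR copies are collapsed by UMIs, and intervals cover counting error only. With 1 library per group there was no test. Ratios used a pseudocount of 10 CPM, and the background was all genes with a mean of at least 20 CPM over the 3 libraries. A count of 0 allows 3 counts. All 9 genes are named whatever their values, as are the pathway genes past 2-fold and the 3 highest of each list in NK-like cells, by their PBS level, besides Tbx21, Runx3, Fas and Tnf, chosen after their values were seen. Free RNA, from barcodes of at most 100 UMIs, was expected to add at most 3.74 CPM to a lymphocyte class for any member. The comparison of Xist and Y cells used a criterion chosen after the values were seen. Intervals and thinning were tested on simulated data. The genes, lists and cell classes were chosen with earlier results of these data known. No amino acid sequences and no promoter of Ctsw are given. The value of 1 pathway gene is not reported here.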

Additional observations from a re-analysis of the deposited data

Results flagged for a closer look

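Of 18 ratios to PBS in NK-like cells (9 genes at 2 times), 4 had opposite signs in cells with Xist and no Y-linked UMIs (Xist cells) and in cells with the reverse (Y cells), with counting intervals that did not overlap. This criterion was chosen after the values were seen. The stricter one, that both intervals exclude 0 in opposite directions, was met by 0 of the 18. The difference was not tested, since the cells of a library come from an unknown number of mice. For Gzma at 7 days the log2 ratio of CPM was 1.04 from 91 WGP against 49 PBS Xist cells and -0.12 from 176 against 32 Y cells, a difference of 1.16. For Gzma at 3 days it was 0.16 in Xist and -0.24 in Y cells, a difference of 0.396. For Prf1 at 3 days it was 0.83 and -0.04, a difference of 0.872. For Gzmb at 3 days it was -0.52 and 0.85, a difference of -1.37. The 3-day Xist values rest on 13 cells, with 21 Gzmb and 72 Prf1 UMIs.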

How the results depend on the processing

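No paired analysis was possible because each group had 1 library. The alternatives were other limits on UMIs and mitochondrial share, doublets kept, barcodes above the knee (8431 UMIs) removed, classes from marker gates, finer clusters, other scalings, free RNA subtracted, other pseudocounts, and Xist or Y cells alone. Another was a background of genes with a mean of 5 CPM or more. That background and the pseudocounts are counted as alternatives below but cannot change the sign of a ratio. Added after seeing the data were each NK cluster alone and leaving out, for each gene, the 5 cells of a library with most of its UMIs. Such 5 cells are a larger part of a class with fewer cells, so this removal was unequal between libraries. Values that it moved or turned are to be read with that limit. NK-like cells were highest in 18 of the 27 pairs of gene and library under 8 of 10 alternatives, in 13 among Xist cells and in 17 among Y cells. Only named classes with at least 20 cells in a library were ranked. Xist NK-like cells of 3-day WGP numbered 13, so no pair of that library could count among Xist cells. In NK-like cells Gzmb and Prf1 at 7 days were above PBS in all 17 alternatives, from 0.24 to 1.26 and 0.24 to 0.84, Gzma in 16 of 17, from -0.12 to 1.04, and Ctsw was below in all 17, from -0.44 to -0.04. The values 1.26 and 0.84 came from leaving out the 5 cells of each library. The percent of all genes past 2-fold there, at 3 and 7 days, was 12.6 and 12.3 in Y cells, 2.45 and 3.35 with a pseudocount of 1, 0.0725 and 0.272 with one of 50, 3.66 and 2.94 in cluster 1 and 2.68 and 7.99 in cluster 2. It was 3.30 at 7 days in Xist cells, and at 3 days 1.10 with barcodes above the knee removed and 1.16 with marker gates.

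Counts of members past 2-fold moved as follows. Under the alternatives the share over all genes was computed in NK-like cells only. The counts in the 3 T cell classes therefore have no such share beside them and are not a result about the members. In NK-like cells at 3 days the count was 1 in Y cells, with a pseudocount of 1 or in cluster 2 alone. At 7 days it was 2 in Xist cells, with a pseudocount of 1 or without the 5 cells, 3 in Y cells, and 0 with a pseudocount of 50 or in cluster 2 alone. In CD8 T-like cells at 3 days it was 2 at 2000 UMIs, 3 with marker gates or in Xist cells, 4 with finer clusters, and 0 above the knee removed, with a pseudocount of 50 or without the 5 cells. At 7 days it was 1 above the knee removed, with marker gates, in Xist cells or without the 5 cells, 2 with finer clusters and 3 in Y cells. In innate-like T cells it was 4 and 5 at 3 and 7 days with marker gates, 1 and 1 with a pseudocount of 50, and 1 at 3 days without the 5 cells. In gamma-delta T-like cells at 3 days it was 4 with doublets kept or a pseudocount of 1, 2 with marker gates and 0 with a pseudocount of 50, and at 7 days 1 with a pseudocount of 50 or without the 5 cells. Values that turned were Gzma in innate-like T cells at 3 days, 4.42 with marker gates and 0.46 without the 5 cells, Gzmb in gamma-delta T-like cells at 3 days, 0.59 without the 5 cells, Gzmc in innate-like T cells at 7 days, -0.27 in Xist cells, and Gzmk in CD8 T-like cells at 3 days, 0.19 in Y cells. The causes were not tested.

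The share of the 9 genes' UMIs in NK-like cells in PBS, 3-day and 7-day WGP was 38.3%, 55.8% and 59.6% with doublets kept, 57.5%, 77.4% and 83.1% with barcodes above the knee removed, 43.5%, 57.5% and 59.1% with marker gates, and 44.9%, 36.5% and 56.6% in Xist cells. It was 28.4% in PBS and 61.0% in 7-day WGP in Y cells, 39.9% in PBS at 2000 UMIs and 61.5% in 3-day WGP with free RNA subtracted. The share of NK-like cells with Gzmb was 43.2%, 44.1% and 64.5% with no thinning. Thinned to 2000 UMIs it was 34.5% and 47.1% in 3-day and 7-day WGP, and with at least 2 UMIs 28.9% and 49.9%. Ratios in Xist NK-like cells (13 cells) and Xist innate-like T cells (3 cells) of 3-day WGP and Xist gamma-delta T-like cells after WGP (8 and 12 cells) rested on too few cells and were not computed as alternatives.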

Other observations

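Single cells carried members into other classes. In 3-day WGP, 1 cell of the neutrophil-like class held all 49 Gzma and all 26 Gzmb UMIs of that class, and 1 cell of the monocyte and macrophage-like class held 86 of its 92 Gzma UMIs. In 7-day WGP, 1 cell of the plasmacytoid dendritic-like class held all 61 of its Gzma UMIs. Plasma-like cells held 2.37% and 2.26% of the Gzma UMIs in PBS and 3-day WGP and 0.01% in 7-day WGP. Whether these were doublets that had not been removed was not tested.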
